A study of Homo sapiens with 3 samples.

Results

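The stretch of chromosome 1 examined here holds the gene ERRFI1 and the acetylated chromatin around it in the human line 786-O, which derives from a clear cell carcinoma of the kidney. Its members were all TEAD and H3K27ac regions whose summit lay between positions 8020000 and 8320000 of chromosome 1 in build hg19. That rule took 38 of 35241 TEAD regions and 59 of 52667 H3K27ac regions. The members were chosen by the position of their summits, in a window selected on the density of both lists, so the numbers of regions, their folds and their widths are given as descriptions, with no test. Both profiles come from 1 library each of 786-O cells, with no treatment named, 1 for TEAD and 1 for H3K27ac. A further library of input chromatin was not analysed here directly. Whether it set the background of the deposited folds is not stated in the submitters' processing notes. Cells had been fixed in 1% formaldehyde for 10 min. Names inside the TEAD list read TEF1 and TEF3. The antibody's target among the TEAD proteins was not resolved further.

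ERRFI1, also called MIG6 or RALT, encodes a cytoplasmic inhibitor of the EGF receptor family. The protein binds the kinase domain of the active receptor and promotes its removal from the membrane, and the gene is induced by the growth factor signals that its product dampens. TEAD proteins bind DNA and recruit the Hippo pathway co-activators YAP and TAZ, often at enhancers far from the genes they serve. H3K27ac is the acetylation that p300 and CBP place on histones at active promoters and enhancers, and long runs of it mark clustered enhancers. The line lacks functional VHL, the tumour suppressor commonly lost in this cancer.

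ERRFI1 lies on the minus strand from position 8071779 to 8086393, so its start is the higher coordinate and upstream means increasing positions. Positions below are distances from that start. An annotation of exons in hg19 was not used here, so regions within the gene are placed in the gene body only. In RefSeq's order of genes the nearest protein-coding neighbours are PARK7 past the 3′ end and SLC45A1 on the upstream side. The gene next to ERRFI1 on the upstream side is ERRFI1-DT, a divergent long noncoding RNA. Positions of these neighbours in hg19 were not used, so whether they reach into the window was not determined.

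The ERRFI1 promoter is shown because the strongest acetylation of the window and a TEAD region both lay over it. The sequence is RefSeq's, from build GRCh38.p14, minus strand, running from 250 bases before the gene start to 50 bases of the transcribed side. Capitals mark, in this order, an inverted CCAAT box, a GC box and a TATA-like run.
ERRFI1 promoter, chr1:8026260-8026559 (GRCh38.p14): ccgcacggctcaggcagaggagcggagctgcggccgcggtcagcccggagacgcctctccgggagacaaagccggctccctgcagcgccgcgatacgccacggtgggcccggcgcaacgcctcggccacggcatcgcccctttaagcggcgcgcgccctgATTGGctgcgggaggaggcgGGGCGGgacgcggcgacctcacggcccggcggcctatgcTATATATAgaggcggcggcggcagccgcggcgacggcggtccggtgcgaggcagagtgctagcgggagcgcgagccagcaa
The span of ERRFI1 given in hg19 is 32 bases longer than RefSeq's gene, so the position of this sequence relative to the hg19 regions is approximate.

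The promoter is rich in G and C, at 74.7% against a median of 58.7% over 35116 RefSeq promoters of the same length. Each motif was searched on both strands. CCAAT occurred once, as did GGGCGG, and these letters occur in 34.6% and 45.0% of all promoters. TATATA occurred 4 times in 1 overlapping run that reads the same on both strands, and 3.99% of promoters hold it. The TEAD core GGAATG was not among these letters, and 14.0% of all promoters hold it. Neither the AP-1 motif TGANTCA (7.71% of promoters), the RUNX core TGTGGT (13.1%), the HIF core ACGTG (21.4%) nor the NF-κB motif (5.91%) was found in this window. A missing match says only that these letters are not in these 300 bases.

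Most TEAD regions lay upstream of the gene. Of the 38 TEAD summits, 34 were upstream of the ERRFI1 start, which is 89.5%, and they reached 212.0 kb away. The window itself is not centred on the gene: 77.9% of its length lies upstream of the start. The gene body held 3 TEAD regions and the 3′ side held 1. H3K27ac was placed alike, with 52 of 59 summits upstream of the start. The spacing was uneven: taking gaps of over 10 kb as breaks, the TEAD summits fell into 9 clusters of 1 to 11 summits. The largest cluster held 11 summits between 51.0 and 83.1 kb upstream. The next held 8 summits between 14.5 and 36.8 kb upstream. Consecutive TEAD summits of the window stood a median of 3863 bp apart, against 23208 bp over all TEAD regions, a difference that the choice of a dense window sets.

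**Figure D1:**
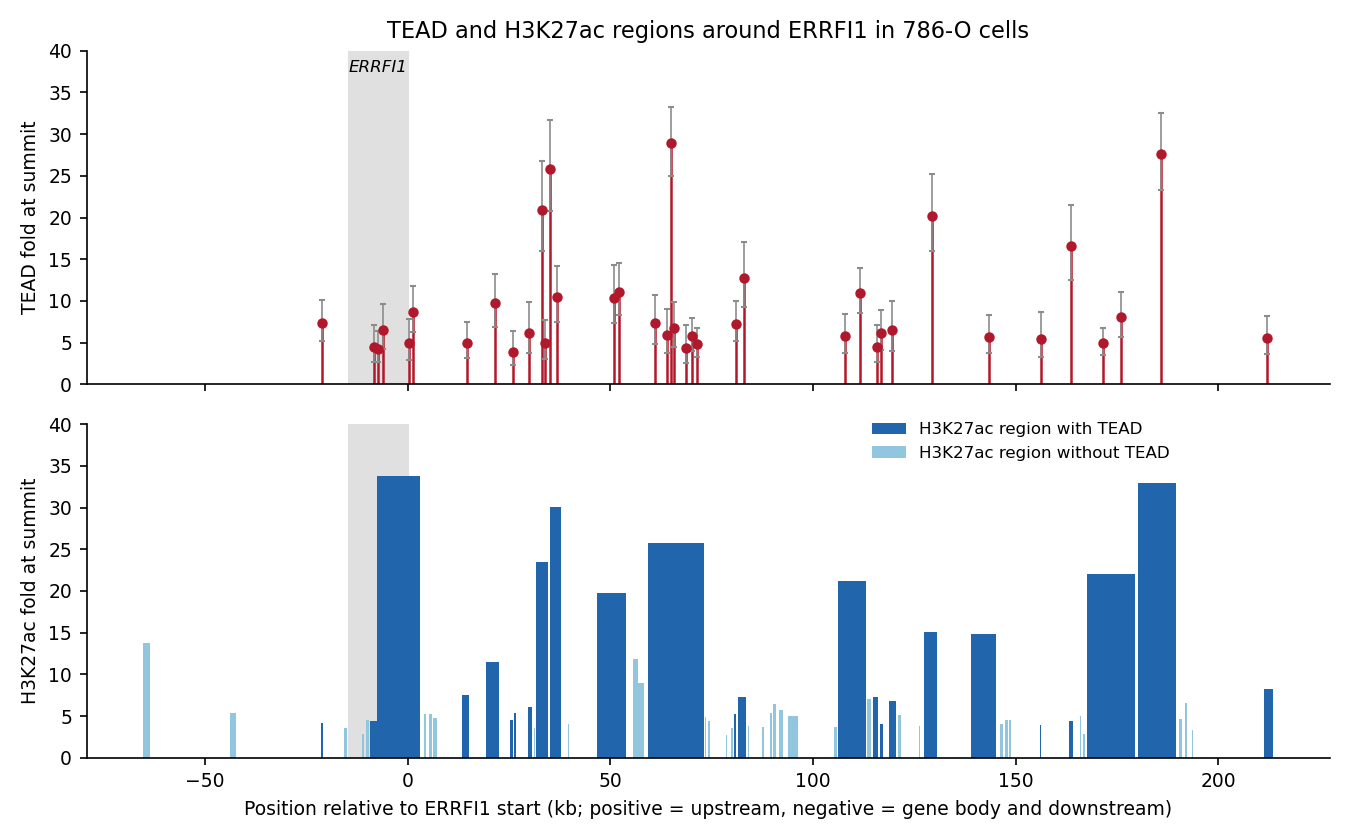
TEAD regions (upper panel, points with exact 95% Poisson intervals on the summit pileup) and H3K27ac regions (lower panel, bars as wide as each region) by position relative to the ERRFI1 start in kb, with fold at the summit on the vertical axes and the gene body in grey. The TEAD regions of at least 20-fold lie between 33.2 and 185.8 kb upstream, while those at the gene stay at or below 8.72-fold.

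For each region the authors deposited a fold, which is the signal at the summit relative to the peak caller's local background. The number of reads piled up at the summit was recovered from the deposited fold and p-value. It gave a counting interval on each fold, quoted below as an exact 95% Poisson interval. These intervals cover counting error of the summit reads only. They take the recovered background as exact, so they are narrower than intervals that also counted its error. The reads carry no molecular identifiers, and with 1 library a group no value has a replicate check.

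The ERRFI1 start sat under the strongest H3K27ac region of the window. This region ran from 8078913 to 8089460, 10548 bp, from 7.5 kb inside the gene to 3.1 kb upstream of its start. Its summit lay 440 bp upstream of the start, with 152 reads and 33.8-fold enrichment (28.7 to 39.6). Among all 52667 H3K27ac regions it ranked 166th by fold and 169th by width.

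The same region held 4 TEAD summits, with folds between 4.22 and 8.72. The summit nearest the gene start lay 206 bp upstream, in a region from 8086407 to 8086678, with 16 reads and 4.92-fold enrichment (2.94 to 7.81). The strongest of the 4 lay 1.316 kb upstream, from 8087500 to 8087961, with 39 reads and 8.72-fold enrichment (6.27 to 11.85).

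The other 2 TEAD summits under this H3K27ac region were inside the gene. One lay 6.144 kb inside, with 24 reads and 6.57-fold enrichment (4.30 to 9.645). The other lay 7.399 kb inside, with 21 reads and 4.22-fold enrichment (2.69 to 6.35). Another TEAD region near the gene, 8.357 kb inside it, had 16 reads and 4.47-fold enrichment (2.67 to 7.09) and sat in a separate H3K27ac region of 4.36-fold. The counting intervals of all 5 overlap, though those of the highest and lowest fold only between 6.27 and 6.35. Their order was not tested.

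H3K27ac in the rest of the gene body was weak. The 3 other H3K27ac regions that overlapped the gene had 2.86-, 4.57- and 4.36-fold enrichment, and none was wider than 1633 bp. Within 5 kb upstream of the start there was 1 further H3K27ac region, of 477 bp and 5.30-fold, without TEAD.

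The 5 TEAD regions of highest fold stood 33.2 to 185.8 kb upstream of the ERRFI1 start. The highest fold, 28.9 (24.95 to 33.3), was reached 64.9 kb upstream in a region from 8150809 to 8151595 with 190 reads. The second, 27.6-fold (23.3 to 32.5), lay 185.8 kb upstream from 8271740 to 8272792 with 143 reads. The third, 25.8-fold (20.7 to 31.7), lay 35.1 kb upstream from 8121223 to 8122215 with 88 reads. These 3 intervals overlap.

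The fourth, 33.2 kb upstream from 8119084 to 8119810, had 60 reads and 20.9-fold enrichment (16.0 to 26.75). The fifth, 129.4 kb upstream from 8215484 to 8216091, had 76 reads and 20.2-fold enrichment (16.0 to 25.3). With the background taken as exact, each of the 5 lower bounds lies above the upper bound of 11.85 for the strongest TEAD region at the gene itself.

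Fold and read number ranked these sites differently within the whole TEAD list. The region of 28.9-fold ranked 1529th of 35241 by fold and 358th by summit reads. Its recovered background was 5.61 reads, higher than at 96.8% of TEAD regions. The region of 27.6-fold ranked 1716th by fold and 793rd by reads, with a background of 4.21. By contrast, the region of 20.9-fold ranked 3018th by fold and 4654th by reads, with a background of 1.93 reads. The fold divides by that background, and DNA copy number, which can move it, was not measured.

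Of the 5 TEAD summits of highest fold, 4 lay inside 1 of the 5 H3K27ac regions of highest fold, and none in the region over the promoter. In order of fold, these 5 H3K27ac regions held 4, 1, 2, 7 and 2 of the window's 38 TEAD summits. They thus held a large part of all its TEAD summits, and whether strong summits favoured them was not tested. The H3K27ac region second in fold, at 33.0 (27.5 to 39.2), ran from 8266695 to 8276092 and held the TEAD summit of 27.6-fold alone. The third, at 30.1-fold (24.9 to 36.1), ran from 8121370 to 8124094 and held TEAD summits of 25.8- and 10.4-fold.

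The fourth H3K27ac region, at 25.8-fold (21.1 to 31.2), ran from 8145588 to 8159480 and held the TEAD summit of 28.9-fold. The fifth, at 23.5-fold (18.6 to 29.3), ran from 8118072 to 8121126 and held TEAD summits of 20.9- and 4.99-fold. The remaining strong TEAD summit, at 20.2-fold, lay in an H3K27ac region of 15.1-fold.

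Enrichment of single TEAD sites in the window was not high. The median TEAD fold was 6.54 in the window, with a range of 3.94 to 28.9, and 7.14 over all TEAD regions. TEAD regions of at least 10-fold made up 11 of 38, or 28.9% (95% Wilson interval 17.0 to 44.8%), against 30.4% of all TEAD regions. The weakest, 26.1 kb upstream from 8112380 to 8112648, had 14 reads and 3.94-fold enrichment (2.27 to 6.43). TEAD regions of the window had a median width of 528 bp and 29 summit reads, against 463 bp and 24 reads over the list. Median recovered background was 2.82 reads at TEAD regions of the window and 2.45 over all, and its part in the folds was not tested.

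H3K27ac regions of the window likewise had many weak members. Their median fold was 5.23 in the window, with a range of 2.69 to 33.8, and 6.54 over all H3K27ac regions. Those of at least 10-fold numbered 13 of 59, or 22.03% (13.4 to 34.1%), against 30.5% of the list. The weakest had 2.69-fold enrichment and lay 78.7 kb upstream, from 8164870 to 8165337, with no TEAD. Median background was 3.16 reads at H3K27ac regions of the window and 2.82 over all. Much of the acetylation lay in a few broad regions: 14 H3K27ac regions of at least 2000 bp held 71.2% of the acetylated bases of the window. Regions of that width made up 23.7% (14.7 to 36.0%) of H3K27ac regions in the window and 22.1% of the list.

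Across the window as a whole, TEAD fold and H3K27ac fold hardly ran together. Over the 37 TEAD summits that lay inside an H3K27ac region, Pearson's r of the log2 folds was 0.18 and Spearman's rho of the folds 0.06. Over all 19492 such TEAD summits the values were 0.01 and −0.02. Sites that share an H3K27ac region share its fold, so these are descriptions across sites. The 11 TEAD regions of at least 10-fold lay in H3K27ac of 4.40- to 33.0-fold, with a median of 21.2. Of the 27 weaker ones, the 26 with their summit inside H3K27ac lay in regions of 3.92- to 33.8-fold, with a median of 21.6. A TEAD region 163.8 kb upstream shows the range: it had 53 reads and 16.5-fold enrichment (12.5 to 21.5) in an H3K27ac region of only 4.40-fold and 1056 bp. It was picked out after its values had been seen.

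Every TEAD region of the window met H3K27ac. All 38 TEAD regions overlapped H3K27ac by 1 bp or more, 100% with a 95% Wilson interval of 90.8 to 100%, against 68.4% of all TEAD regions. The summit itself lay inside H3K27ac for 37 of 38, or 97.4% (86.5 to 99.5%), against 55.3% of the list. The exception was the weakest TEAD region, whose summit lay 69 bp outside and which bridged a narrow gap between 2 H3K27ac regions of 4.50- and 5.43-fold. It was the 1 TEAD region of 38 that touched more than 1 H3K27ac region, a configuration of 5.53% of all TEAD regions.

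A like share was found in other long domains. H3K27ac regions were joined over gaps of up to 12 kb into domains, and the other 305 domains with a span of at least 50 kb held 2556 TEAD summits. Of these, 96.0% (95.2 to 96.7%) belonged to a TEAD region that overlapped H3K27ac. The overlap at ERRFI1 was near that of long acetylated domains in general, and no test of the difference was made.

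In the other direction most H3K27ac regions of the window had no TEAD. TEAD overlapped 25 of the 59 H3K27ac regions, or 42.4% (30.6 to 55.1%), against 41.7% of all H3K27ac regions, so the share was near that of the list. Those with TEAD held 79.7% of the acetylated bases. They had a median width of 2062 bp and a median fold of 7.53, against 570 bp and 4.64-fold for the 34 without TEAD. The whole list showed the same contrast, with medians of 1646 bp and 9.63-fold with TEAD, and 659 bp and 5.31-fold without. A wide region has more room for TEAD, and the part of width in this contrast was not tested.

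The share of H3K27ac regions with TEAD rose with their width. Regions of at least 2000 bp held 71.2% of the acetylated bases and 27 of the 37 TEAD summits inside H3K27ac. Per 10 kb of H3K27ac, TEAD summits numbered 3.19 in these regions and 2.92 in narrower ones. Over the list the values were 2.91 and 2.16. Of the 14 H3K27ac regions of at least 2000 bp, 13 carried TEAD, or 92.9% (68.5 to 98.7%), against 76.1% of all regions of that width. Of the 45 narrower ones, 12 carried TEAD, or 26.7% (16.0 to 41.0%), against 31.9% of the list. In the quartiles of width of the whole list, from narrow to wide, 2 of 15, 4 of 20, 6 of 10 and 13 of 14 regions of the window carried TEAD. The shares in the whole list were 17.5%, 30.8%, 44.7% and 73.9%. Each of these lies inside the Wilson interval of the window's share, which for the widest quartile ran from 68.5 to 98.7%.

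**Figure D2:**
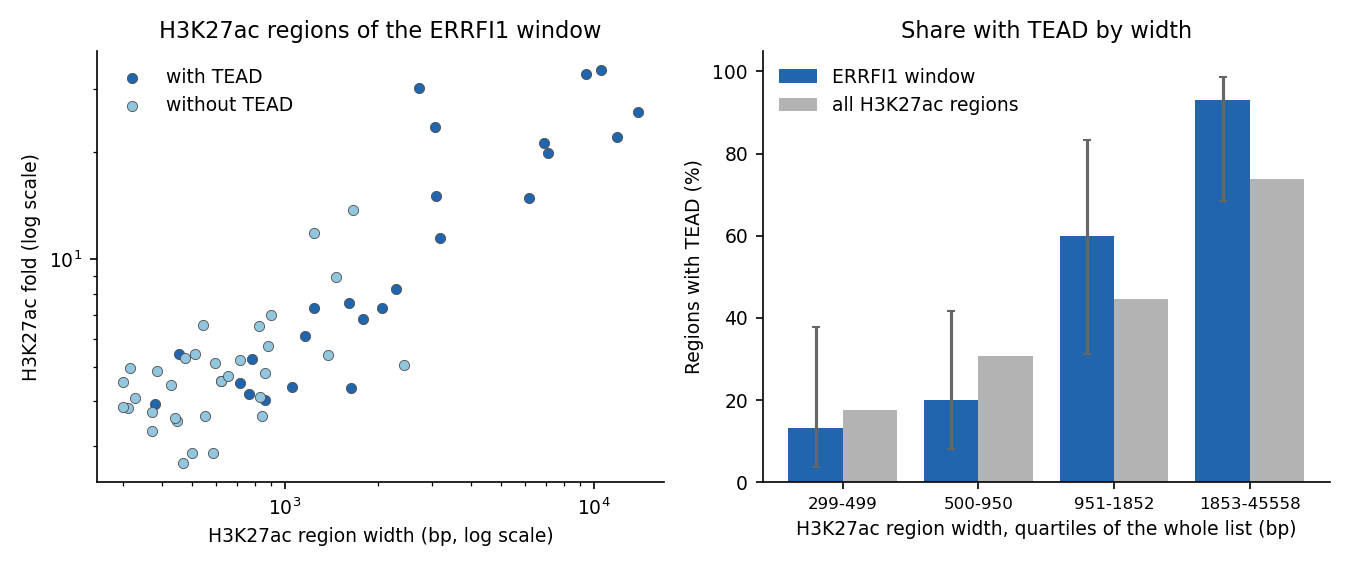
Left, fold against width (both log scales) of the 59 H3K27ac regions of the ERRFI1 window, dark where TEAD overlaps; right, the share of H3K27ac regions with TEAD by width quartile for the window (95% Wilson intervals) and for all H3K27ac regions. All 11 regions wider than 2424 bp carry TEAD, and the list-wide share lies inside the window's wide interval in each quartile.

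The broad H3K27ac region 59.2 to 73.1 kb upstream carried the most TEAD. Its 13893 bp held 7 TEAD summits, and 11 of the 52667 H3K27ac regions overlapped as many or more. It ranked 55th by width. H3K27ac regions with 3 or more TEAD regions numbered 2 of 59 in the window, 3.39% (0.935 to 11.5%), against 1.27% of the list. The other was the region over the ERRFI1 start with its 4.

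The 7 TEAD summits of this region differed widely. Besides the summit of 28.9-fold, they had 7.33-, 5.98-, 6.76-, 4.39-, 5.75- and 4.84-fold enrichment in order of position. The nearest of these to the strong summit, of 5.98- and 6.76-fold, stood 63.9 and 65.8 kb upstream, on either side of it. The H3K27ac summit of the region lay 401 bp from the strong TEAD summit.

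Not every broad H3K27ac region was dense in TEAD. The region of 11911 bp from 8254092 to 8266002 had 21.98-fold H3K27ac enrichment and held 2 TEAD summits, of 4.92- and 8.07-fold. The region of 6157 bp from 8225438 to 8231594 had 14.8-fold enrichment and held 1 TEAD summit, of 5.69-fold. The 1 H3K27ac region of over 2000 bp without TEAD ran from 8180334 to 8182757 with 5.05-fold enrichment, 94.8 kb upstream.

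That region lay in a stretch with acetylation but no TEAD. Between the TEAD summits at 83.1 and 108.0 kb upstream, 24.9 kb, there were 7 H3K27ac regions without TEAD, covering 5886 bp with folds of 3.64 to 6.50. A second stretch, of 26.2 kb between the TEAD summits at 185.8 and 212.0 kb, held 3 such H3K27ac regions of 3.31- to 6.54-fold. A TEAD region below the caller's threshold would not be listed.

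Of the 34 H3K27ac regions without TEAD, 2 reached 10-fold, against 11 of the 25 with TEAD. The share among all H3K27ac regions of the list without TEAD is not given here. The stronger of the 2 had 13.8-fold enrichment (10.7 to 17.4) with 68 reads. It lay 64.5 kb past the ERRFI1 start on the 3′ side, from 8021063 to 8022726, on the side of PARK7. Its nearest TEAD summit was 12671 bp away, outside the window. No hg19 position of PARK7 was used, so whether this region lies at the start of that gene was not determined. The other had 11.8-fold enrichment (8.70 to 15.7), lay 56.5 kb upstream and stood 4351 bp from the nearest TEAD summit.

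TEAD summits stood beside the H3K27ac summits rather than on them. The median distance from a TEAD summit to the nearest H3K27ac summit was 397 bp in the window, with an interquartile range of 268 to 838 bp, and 552 bp over all TEAD regions. Within 500 bp lay 63.2% of TEAD summits of the window and 46.3% of the list. Within 200 bp lay 10.5% of those of the window and 10.1% of the list. Only 55.3% of all TEAD summits lay inside H3K27ac, against 97.4% in the window, so the comparisons above set unlike sets side by side. For summits inside an H3K27ac region, the median distance to that region's own summit was 406 bp in the window and 400 bp over the list. Among the 37 such summits of the window, 3 lay within 150 bp of it (8.11%, against 11.2% over the list). At 150 to 500 bp lay 19 (51.4%, against 51.2% over the list), and beyond 1000 bp lay 10 (27.03%, against 17.1% over the list). The regions of the window that hold several TEAD summits are long, and the part of their length in these distances was not tested. TEAD lay on the higher-coordinate side of the H3K27ac summit for 16 summits and on the lower side for 21.

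**Figure D3:**
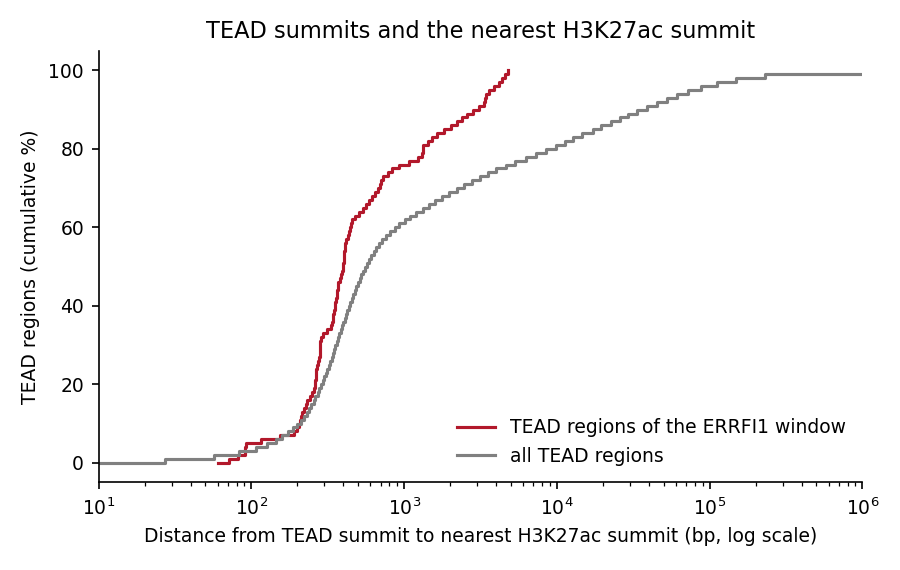
Cumulative percent of TEAD regions by distance from the TEAD summit to the nearest H3K27ac summit (bp, log scale), for the 38 TEAD regions of the ERRFI1 window and for all 35241. The median is 397 bp in the window and 552 bp over the list, and the farthest TEAD summit of the window is 4782 bp away, while the whole list has a long tail of TEAD far from H3K27ac.

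Few pairs of summits were close, in the window as in the list: within 200 bp lay 10.5% and 10.1% of TEAD summits. At 4 TEAD regions the H3K27ac summit was within 200 bp: the 1 past the 3′ end of the gene (90 bp), and those 29.9, 116.8 and 156.3 kb upstream (93, 195 and 60 bp). Their TEAD folds were 7.38, 6.21, 6.21 and 5.48. For the 5 strongest TEAD regions the distances were 401, 685, 406, 343 and 265 bp.

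The joined H3K27ac domain over ERRFI1 ran from 8064857 to 8280256. It spanned 215.4 kb, held 56 H3K27ac regions and contained 37 of the 38 TEAD summits. Among 22928 domains it had the widest span and the most H3K27ac regions, and it shared the highest number of TEAD summits with the domain on chromosome 14 from 61927711 to 62089925, which also held 37. These ranks describe what the locus was chosen for, and they depend on the joining distance. With a gap of 5 kb the domain broke into 7 pieces, each with TEAD. The piece with the most had 11 TEAD summits, from 8133120 to 8182757, and ranked 21st. The piece with the ERRFI1 gene had 6 and ranked 126th.

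Density, as opposed to number, was not extreme. The domain held 1.72 TEAD summits per 10 kb of span (95% Poisson interval 1.21 to 2.37), 38th of 306 domains of at least 50 kb. The median of those 306 was 1.16 and the highest 3.01. H3K27ac covered 52.8% of the span, against a median of 41.5%. Per 10 kb of H3K27ac the domain held 3.26 TEAD summits (2.29 to 4.49), 85th of the 306, whose median was 2.62.

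The chromosome 14 domain was shorter and more continuous. It spanned 162.2 kb with 29 H3K27ac regions that covered 77.6% of it, and TEAD numbered 2.94 per 10 kb of H3K27ac (2.07 to 4.05). Median TEAD fold was 6.57 in the ERRFI1 domain and 8.87 in the chromosome 14 domain, where the strongest TEAD region reached 40.5-fold. TEAD of at least 10-fold made up 29.7% of the ERRFI1 domain and 45.9% of the chromosome 14 domain.

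The next domains by TEAD number were alike in density per acetylated length. A chromosome 15 domain, from 67334308 to 67473177, held 26 TEAD summits, at 3.24 per 10 kb of H3K27ac and a median fold of 9.12. That on chromosome 7 from 27134998 to 27224669 held 25, at 3.42 per 10 kb and a median fold of 5.41. Both chromosome 22 domains, from 36719800 to 36878206 and from 30575925 to 30687328, held 25 and 20, at 3.24 and 3.13 per 10 kb. All 5 counting intervals overlap that of ERRFI1, and the order in density among these 6 domains was not tested. Median TEAD fold was lower than at ERRFI1 only in the chromosome 7 domain among these 5.

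Per 10 kb of span the densest domain of at least 50 kb was on chromosome 8 from 118989030 to 119048835, with 18 TEAD summits in 59.8 kb, 3.01 per 10 kb (1.78 to 4.76). The chromosome 7 domain above came second, and next was a chromosome 1 domain from 43388884 to 43439544 with 13 in 50.7 kb. The domain second in span, 180.6 kb with 38 H3K27ac regions, held 10 TEAD summits, 1.28 per 10 kb of H3K27ac (0.613 to 2.35).

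**Figure D4:**
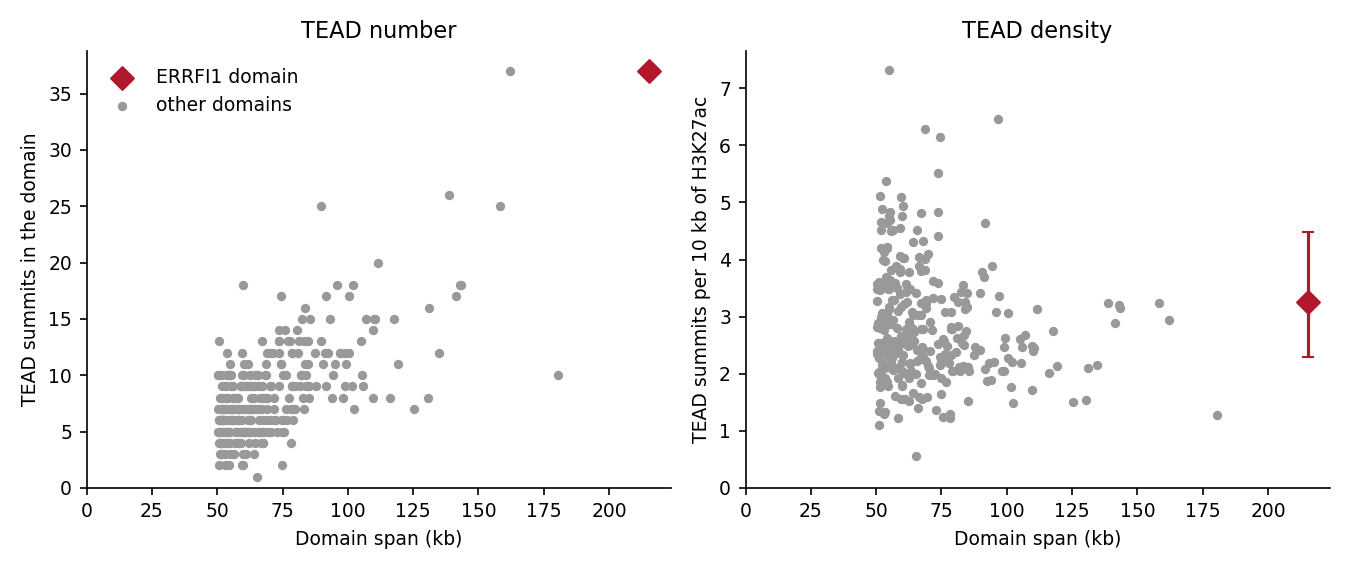
TEAD summits per domain (left) and per 10 kb of H3K27ac (right) against domain span in kb, for the 306 joined H3K27ac domains of at least 50 kb, with the ERRFI1 domain as a red diamond and its 95% Poisson interval at right. The ERRFI1 domain is widest at 215.4 kb with 37 TEAD summits, while its density of 3.26 lies among the other domains.

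Fewer regions lay on either side than in the window, which was chosen for its density. Among 300 kb tiles with any region of the list, the median was 4 for TEAD and 6 for H3K27ac. Neither side fell below these medians. The window held 38 TEAD and 59 H3K27ac regions, against 4 TEAD and 12 H3K27ac regions in the 300 kb before it and 9 TEAD and 18 H3K27ac regions in the 300 kb after it. The members nearest the window's limits were a TEAD region 21.1 kb past the gene start on the 3′ side (7.38-fold) and one 212.0 kb upstream (5.55-fold). The nearest TEAD regions just outside lay 77.2 kb past the start on the 3′ side (15.2-fold) and 317.3 kb upstream (6.88-fold). For H3K27ac the outermost members lay 64.5 kb past the start (13.8-fold) and 212.4 kb upstream (8.28-fold), and the nearest outside lay 71.9 kb past it (10.1-fold) and 286.3 kb upstream (3.31-fold). Moving the limits within these gaps would leave the members as they are.

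The background at the locus was somewhat higher than that of its surroundings. Median recovered background at TEAD regions was 2.82 reads in the window and 2.45 within 5 Mb on each side of it, with means of 3.31 and 2.63. At H3K27ac regions the median was 3.16 reads in the window and 2.82 around it, with means of 3.31 and 2.94. The median fold was 6.54 in the window and 6.91 around it for TEAD, and 5.23 in the window and 6.95 around it for H3K27ac. More background lowers a fold, and its part in these differences was not tested.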

How the data were processed

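Chromatin of 786-O cells was profiled for TEAD, H3K27ac and input, 1 library each. The submitters' processing notes name fastp, Bowtie2 2.4.5, MACS2 and build hg19, with no role, order or parameters. No threshold of the peak caller is given in the sources used here. The authors deposited 1 peak list per ChIP library with each peak's ends, the fold enrichment (a ratio) at its summit, its −log10 p and −log10 q and a whole-number score, which was not used. The deposited lists reach down to a −log10 q of 2.03 for TEAD and 2.05 for H3K27ac. All folds are the authors' own and describe peaks within their list.

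Chromosomes 1 to 22 and X were kept. Summit pileup k and background b were recovered as the whole k for which (k + 1)/(b + 1) gives the fold and the Poisson tail above k gives the p-value. This held within 0.002 of the −log10 p for 100% of regions and was tested on simulated data. Total read numbers are unknown; the median pileup was 24 reads in both lists. Overlap means at least 1 bp. H3K27ac regions were joined over gaps of up to 12 kb. Shares carry 95% Wilson intervals, which treat the members as independent although they lie in 1 locus. No p-value was computed, as each group has 1 library. The members and lists were chosen with earlier results of these data known.

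Named regions were those at the gene and within 5 kb upstream, the 5 TEAD and 5 H3K27ac regions of highest fold, the weakest, the outermost, and the domains most like that of ERRFI1. Promoter letters are RefSeq's (GRCh38.p14). Planned motif searches at TEAD summits, the check of the line against marker genes and the list of EGF receptor pathway genes need hg19 sequence or gene starts and were not run. Python 3.11.15 with numpy 2.4.6, pandas 2.3.3 and scipy 1.17.1 was used.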

Additional observations from a re-analysis of the deposited data

How the results depend on the processing

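Of 22 other settings, 16 left a share or median within its 95% interval, or a rank or count within 1.5 times. The other 6 moved it beyond that. These measures have no direction that could reverse. Several settings keep nearly the same regions and could hardly move a result. A −log10 q of at least 5 and the joined domain each kept 37 of the 38 TEAD regions. The share of TEAD regions overlapping H3K27ac stayed between 97.3 and 100% under 4 alternatives and fell to 86.2% when both lists were kept at 5-fold or more, where fewer H3K27ac regions remain. At that fold 32 of the 59 H3K27ac regions were left. The shared first rank of the ERRFI1 domain by TEAD number became 126 with a joining gap of 5 kb, 2 with 25 kb, and 2 with both lists at a −log10 q of at least 5 or at 5-fold or more. Searches for motifs at TEAD summits were not run. No paired analysis was possible because each group has 1 library and no result comes from a test. Pileups of 10 to 190 reads at the members limit the order of neighbouring folds.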
